A study of Mus musculus with 2 samples.

Results

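The miR-99/100 and miR-125 families were measured in heart from mouse embryos at 13.5 days. The 6 rows whose gene identifiers map to Mir99a, Mir99b, Mir100, Mir125a, Mir125b-1 and Mir125b-2 were taken, of 1973 miRNA gene rows in all. They were taken by gene identity. Short RNAs below 30 nucleotides were sequenced from total RNA of B6NCrl hearts, pooled over both sexes and described as healthy. There is 1 group with 2 libraries, named biological replicates 1 and 2 and made from separate biosamples of 1 strain record. No treatment, genotype or second age was compared, so the comparisons are among the members, among their 3 genomic clusters, and between the libraries.

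A microRNA is cut from a hairpin and guides repression of messenger RNAs that pair with its seed, bases 2 to 8 from its 5′ end. miR-125 is the vertebrate counterpart of lin-4, which together with let-7 times larval development in the worm, and Lin28 messenger RNA is a known target of both. miR-99 and miR-100 are known to repress Mtor, the kinase of a growth pathway, and a fall of miR-99/100 has been linked to heart regeneration in zebrafish. In mammals the families lie with let-7 in paralogous clusters, each with a miR-99/100 hairpin, a let-7 hairpin and a miR-125 hairpin in that order.

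The mature sequences are shown first because the families are defined by their seeds, and because a shared mature sequence bears on which row a read can be assigned to. They come from RefSeq on GRCm38.p6, 5′ to 3′, with the seed in capitals, and all 6 members had an entry.
miR-99a-5p: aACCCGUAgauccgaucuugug
miR-100-5p: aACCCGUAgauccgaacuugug
miR-99b-5p: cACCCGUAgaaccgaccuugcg
miR-125a-5p: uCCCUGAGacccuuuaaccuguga
miR-125b-5p (of both Mir125b-1 and Mir125b-2): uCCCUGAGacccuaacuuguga
miR-125b-1-3p: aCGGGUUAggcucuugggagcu
miR-125b-2-3p: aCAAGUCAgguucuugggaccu

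miR-99a-5p and miR-100-5p differed at 1 of 22 positions, U16A, with the miR-99a base first and positions counted from 1 at the 5′ end. miR-99b-5p differed from miR-99a-5p at 4 positions, A1C, U11A, U16C and U21C, none of them in the seed. Each of these 3 sequences was listed at 1 locus. The miR-125a and miR-125b 5p sequences were identical over their first 13 bases. They are 24 and 22 bases long, and their remaining bases were not aligned with gaps. The miR-125b 5p sequence was listed at 2 loci and was the same over all 22 bases, while the 3p sequences of those loci differed at 5 positions (G3A, G4A, U7C, C11U and G20C, Mir125b-1 first). The 3p seed was shared by miR-99a and miR-99b and by no other pair among the members.

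All 6 hairpins lie on the plus strand. On mm10, Mir99a (ENSMUSG00000065530.1) lies at chr16:77598936-77599000 and Mir125b-2 (ENSMUSG00000065472.1) at chr16:77646273-77646343, both in introns of the non-coding host gene Mir99ahg. Mir100 (ENSMUSG00000093011.1) lies at chr9:41531425-41531504 and Mir125b-1 (ENSMUSG00000093354.1) at chr9:41581926-41582002. Both are in introns of the non-coding gene 3110039I08Rik, a synonym of Mir100hg, and Mir125b-1 also lies in an exon of the short transcript Gm28119. Mir99b (ENSMUSG00000065396.1) lies at chr17:17830188-17830257 and Mir125a (ENSMUSG00000065479.1) at chr17:17830812-17830879. Spaca6, a protein-coding gene known for sperm and egg fusion, is the host there. Mir99b was intronic in 2 of its transcripts, and Mir125a intronic in 2 and exonic in 1. The cluster on chromosome 17 spans 692 nucleotides. The other clusters span 47408 nucleotides on chromosome 16 and 50578 on chromosome 9, where the miR-125 hairpin stands 46522 and 45114 nucleotides beyond the let-7 hairpin.

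**Figure D1:**
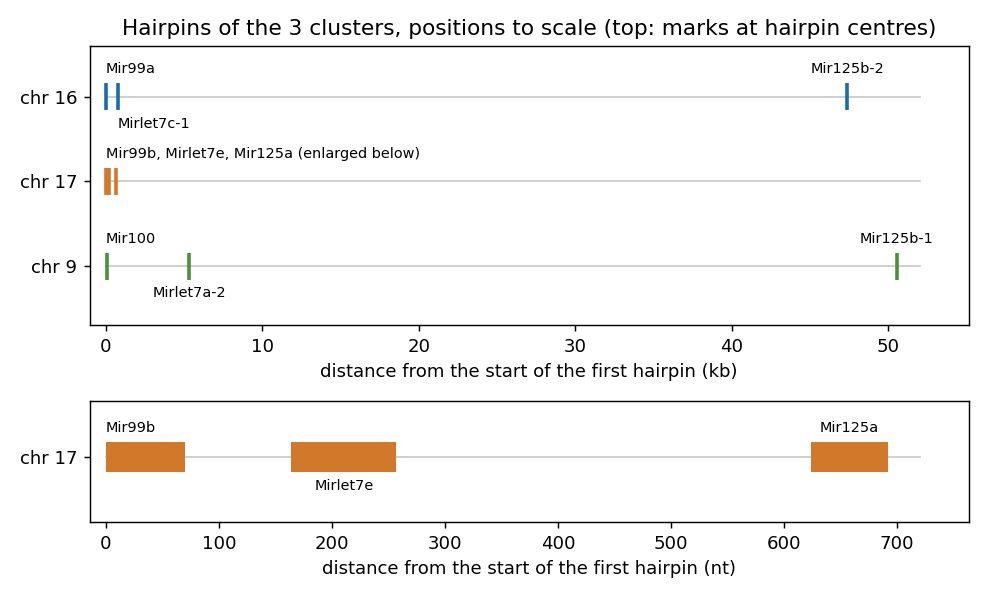
Positions of the 3 hairpins of each cluster in kilobases (top, marks at hairpin centres) and nucleotides (bottom, boxes to scale), measured from the start of the first hairpin. The chromosome 17 cluster fits in 692 nucleotides, while the miR-125 hairpin of the other clusters stands at least 45114 nucleotides from the let-7 hairpin.

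The libraries held 5569959 and 6039005 sense counts, and levels are sense counts per 1000000 of these totals (CPM). Rows known from heart muscle summed to 52060 ± 1888 CPM (SD, n = 2), led by Mir208b. Mir126a of endothelium held 70450 ± 6259 CPM, and smooth muscle rows summed to 89334 ± 5937 CPM. Of the smooth muscle sum, Mir143 held 88435 CPM and Mir145a 899 CPM. Mir1a-1 and Mir133a-1 of heart muscle held at most 25 counts, and Mir133a-2 held 0. Multi-mapping reads were tallied apart from all rows. Their part in these low counts, and so in the heart muscle sum, was not tested. Liver, erythroid, leukocyte, epithelial and neural marker rows summed to between 69.9 and 1662 CPM each, and 2 of the 4 neural rows held 0 counts. The part of multi-mapping reads in these sums and in the neural rows without counts was not tested either. In bulk tissue, fewer cells of a type and less RNA per cell cannot be told apart.

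Together the 6 members took 9.75% of all sense counts in replicate 1, with an exact 95% interval from 9.73 to 9.78, while replicate 2 gave 9.22%, from 9.19 to 9.24. This is a mean of 9.48% ± 0.381 (SD, n = 2). Nearly all of it came from the miR-99/100 rows, which took 9.08% ± 0.334 against 0.403% ± 0.0467 for the miR-125 rows. These shares are of counts assigned to rows, and the part of read assignment in the low miR-125 share was not tested. All 6 rows held counts on the sense strand only. The let-7 family, with 10 of 12 listed members measured on their own rows, took 9.92% ± 0.433 and lay slightly above the members in both libraries. That is a mean of 99191 CPM, or 104011 CPM with Mirlet7e, whose counts lie on the opposite strand of another row. Some let-7 rows share a mature sequence, and the part of read assignment in the let-7 sum was not tested.

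Mir99a held 368991 counts in replicate 1 and 391981 in replicate 2, which is 66247 and 64908 CPM. At 65577 ± 946 CPM it ranked 5th of all rows in both libraries and made up 69.2% ± 1.78 of the members' counts. Mir99b held 113357 and 104440 counts, or 20351 and 17294 CPM, and ranked 13 in replicate 1 and 16 in replicate 2. Its mean was 18823 ± 2162 CPM, or 19.8% ± 1.48 of the members' counts. Mir100, whose 5p sequence is 1 base from that of Mir99a, held 36644 and 37716 counts. Its level was 6579 and 6245 CPM, 6412 ± 236 on average, and it ranked 28 in both libraries.

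The miR-125 rows lay lower. Mir125a held 19105 and 17309 counts, or 3430 and 2866 CPM, with a mean of 3148 ± 399 CPM at rank 41. Mir125b-2 held 3057 and 3204 counts, or 549 and 531 CPM, with a mean of 540 ± 12.9 CPM at rank 102. Mir125b-1 held 2138 and 1845 counts, or 384 and 306 CPM, with a mean of 345 ± 55.4 CPM at rank 119. The highest miR-125 row was thus below the lowest miR-99/100 row in both libraries. The 2 rows with the shared 5p sequence were the lowest members, and the part of read assignment in their levels was not tested.

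**Figure D2:**
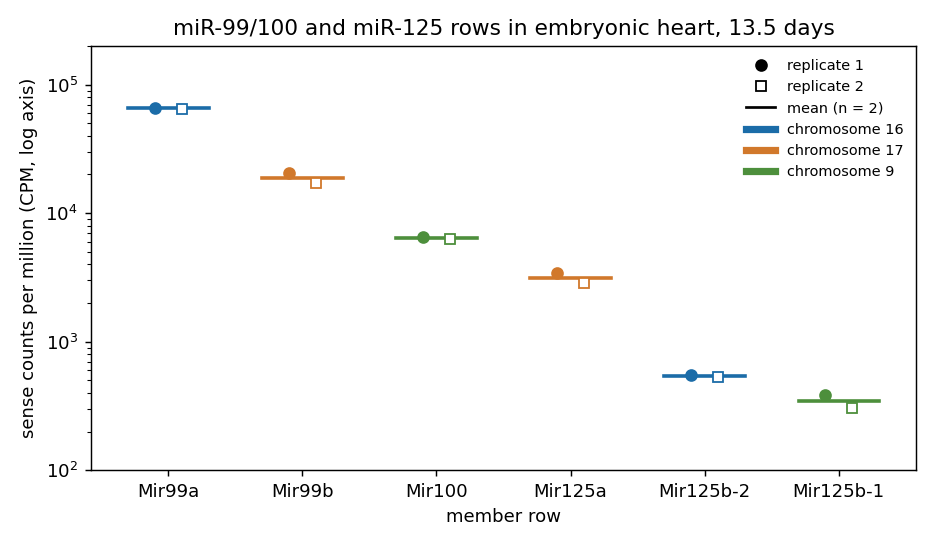
Level of each member in sense CPM on a log axis, ordered by mean, with circles for replicate 1, squares for replicate 2, a line for the mean and a colour per chromosome. Mir99a stands at 65577 CPM and Mir125b-1 at 345 CPM, and replicates of a row lie closer together than neighbouring rows.

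Each step in that order was larger than its spread between the libraries. Mir99a exceeded Mir99b by 3.50-fold (log2 1.81 ± 0.145, SD, n = 2), Mir99b exceeded Mir100 by 2.93-fold (1.55 ± 0.113), and Mir100 exceeded Mir125a by 2.04-fold (1.03 ± 0.130). Mir125a exceeded Mir125b-2 by 5.81-fold (2.54 ± 0.149). The smallest step was 1.58-fold (0.66 ± 0.198) from Mir125b-2 to Mir125b-1, with 1.43-fold in replicate 1 (from 1.35 to 1.51 by the exact 95% interval) and 1.74-fold in the other library (from 1.64 to 1.84). A two-sided exact sign-flip permutation test over 2 libraries cannot go below 0.5, so these ratios carry no test.

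Among all rows, the nearest in level to Mir99a were Mir126a just above it, which differed by less than the spread (log2 of Mir99a over it -0.10 ± 0.108), and Mir208b just below (0.61 ± 0.0789). Mir99b stood between Mir130a (-0.04 ± 0.162) and Mir21a (0.14 ± 0.261) and differed from neither by more than the spread. Mir100 stood between Mir93 (-0.15 ± 0.180) and Mir151 (0.19 ± 0.108), and Mir125a between Mir483 (-0.09 ± 0.0675) and Mir342 (0.04 ± 0.0161). Mir125b-2 stood between Mir676 (-0.03 ± 0.0780) and Mir341 (0.14 ± 0.0497), and Mir125b-1 between Mir182 (-0.02 ± 0.0125) and Mir183 (0.04 ± 0.199). With 2 libraries, likeness could be taken from the level only.

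By cluster, the chromosome 16 members Mir99a and Mir125b-2 summed to 66795 CPM in replicate 1 and 65439 in replicate 2. The chromosome 17 members Mir99b and Mir125a summed to 23781 and 20160 CPM, and the chromosome 9 members Mir100 and Mir125b-1 to 6963 and 6551 CPM. The order of the 3 clusters was the same in both libraries, with no overlap. Chromosome 16 exceeded chromosome 17 by 3.02-fold (log2 1.59 ± 0.148) and chromosome 9 by 9.79-fold (3.29 ± 0.0413). Chromosome 17 exceeded chromosome 9 by 3.24-fold (1.70 ± 0.106). All 3 log2 ratios were larger than their SD between the libraries. The totals are of counts assigned to rows, and those of chromosomes 16 and 9 include the miR-125b rows, which share a mature sequence. The part of read assignment in the cluster totals and their ratios was not tested.

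The miR-99/100 rows set this order, and the miR-125 rows followed another. Mir99a exceeded Mir100 by 10.2-fold (log2 3.35 ± 0.0322). Among the miR-125 rows, Mir125a of chromosome 17 was the highest and exceeded Mir125b-1 of chromosome 9 by 9.16-fold (3.19 ± 0.0496). The chromosome 16 cluster, which had the highest miR-99/100 row, held its miR-125 row at 0.172 times that of chromosome 17 (log2 -2.54 ± 0.149). The 5p sequence of Mir125a is listed at 1 locus, while the miR-125b rows share theirs. The part of read assignment in the order of the miR-125 rows was not tested.

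Within each cluster the miR-99/100 row was above the miR-125 row in both libraries, by very different factors. Mir99a exceeded Mir125b-2 by 121-fold in replicate 1 (from 116 to 125 by the exact 95% interval) and 122-fold in the other library (from 118 to 127), a log2 ratio of 6.93 ± 0.0137. Mir100 exceeded Mir125b-1 by 17.1-fold and 20.4-fold, a log2 ratio of 4.23 ± 0.180. Mir99b exceeded Mir125a by 5.93-fold (5.84 to 6.03) and 6.03-fold (5.94 to 6.13), a log2 ratio of 2.58 ± 0.0171. The smallest factor was that of the cluster where all mature sequences of both members are listed at 1 locus each, and the larger ones were at the clusters that end in a copy of miR-125b.

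Multi-mapping reads were tallied apart from the rows, at 26.9% of all reads in replicate 1 and 28.0% in replicate 2. That class held 628 times the summed counts of Mir125b-1 and Mir125b-2 in replicate 1 and 681 times in replicate 2. Whether reads of miR-125b-5p lie in it is not given in the sources used here, and its part in the low miR-125b rows was not tested. The rows do not separate 5p from 3p reads, so the arms of a hairpin could not be compared.

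The let-7 partners were low in the same clusters. Mirlet7c-1 of chromosome 16 held 631 and 555 counts, or 113 and 91.9 CPM, and Mirlet7a-2 of chromosome 9 held 647 and 662 counts, or 116 and 110 CPM. These partners differed from each other by less than the spread (log2 of Mirlet7c-1 over Mirlet7a-2 -0.15 ± 0.154), although Mir99a and Mir100 beside them differed 10.2-fold. Mirlet7c-1 shares its mature let-7c-5p with Mirlet7c-2, and Mirlet7a-2 is known to give the same let-7a as Mirlet7a-1. How reads of these shared sequences were assigned was not tested, which bears on each ratio to either row.
let-7c-5p: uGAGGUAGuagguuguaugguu
let-7e-5p: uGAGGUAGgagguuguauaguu

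Mirlet7e, the chromosome 17 partner, has a 5p sequence listed at 1 locus. It had no row of its own among the 1973, and its counts were read on the strand opposite to the row of Gm25927, which lies at chr17:17830343-17830459 on the minus strand. They came to 28082 and 27767 counts, or 5042 and 4598 CPM, 42.7 times those of Mirlet7a-2 (log2 5.42 ± 0.0349) and above Mir125a in both libraries (log2 of Mir125a over Mirlet7e -0.62 ± 0.0892).

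Mir99a exceeded Mirlet7c-1 by 643-fold (log2 9.33 ± 0.193) and Mir100 exceeded Mirlet7a-2 by 56.8-fold (5.83 ± 0.0060), against 3.90-fold for Mir99b over Mirlet7e (1.96 ± 0.0721). As shares of the 3 hairpins of a cluster, the miR-99/100 hairpin took 99.0% on chromosome 16, 93.4% on chromosome 9 and 70.2% on chromosome 17. The let-7 hairpin took 0.155%, 1.64% and 18.0% in the same order, and the miR-125 hairpin 0.815%, 5.00% and 11.7%. The assigned counts were thus most even on chromosome 17. There the let-7 and miR-125 5p sequences are each listed at 1 locus. The part of read assignment in the uneven counts of the other clusters was not tested.

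**Figure D3:**
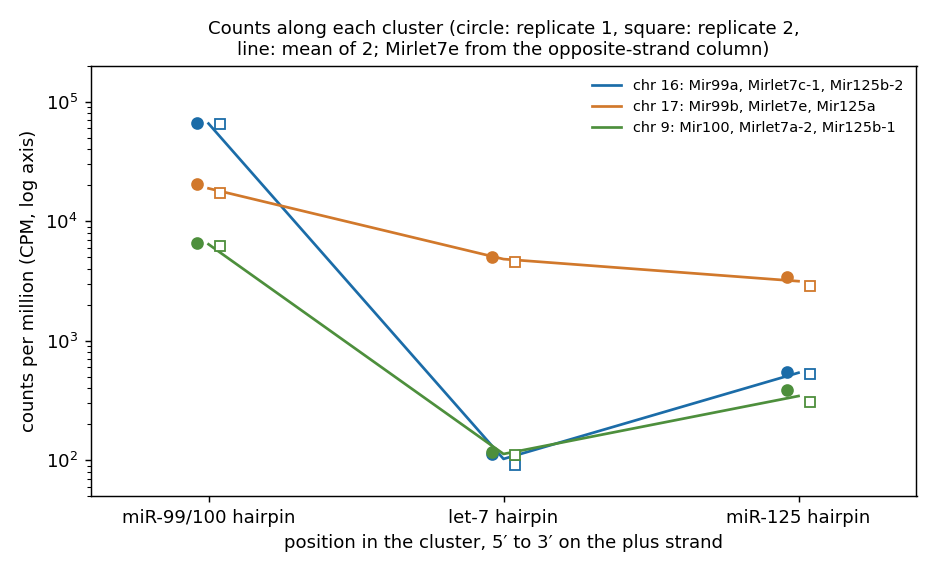
CPM on a log axis at the miR-99/100, let-7 and miR-125 hairpin of each cluster, with circles for replicate 1, squares for replicate 2 and lines through the means. The chromosome 17 hairpins stay between 2866 and 20351 CPM, while the chromosome 16 and 9 clusters fall to between 91.9 and 116 CPM at let-7. Assignment of reads from mature sequences shared between loci was not tested.

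Seed sharing reached beyond the clusters for miR-125 and not for miR-99/100. In RefSeq the miR-99/100 seed was found in the 3 member genes only, which summed to 93177 and 88448 CPM and split into 72.2% ± 1.62 Mir99a, 20.7% ± 1.62 Mir99b and 7.06% Mir100. The miR-125 seed was found in 6 genes with a row, and Mir6367 and Mir6394 held 0 counts, so that levels of up to 0.539 and 0.497 CPM were not detectable at the depth of replicates 1 and 2. Mir351, an X-linked row of another cluster, held 28495 and 27014 CPM and so took 87.3% ± 0.866 of the counts of that seed. Mir125a took 9.89% ± 0.783, Mir125b-2 1.70% ± 0.0403 and Mir125b-1 1.08% ± 0.123. These are shares of counts assigned to rows. Whether further reads of the shared miR-125b 5p sequence lie in the multi-mapping class was not tested.
miR-351-5p: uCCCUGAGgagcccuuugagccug
miR-10a-5p: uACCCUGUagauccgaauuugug

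Counting Mir351, the miR-99/100 seed held 2.86 times the counts of the miR-125 seed (log2 1.51 ± 0.0156), and 22.6 times without it (4.50 ± 0.114). Both ratios are of counts assigned to rows and carry the same limit for miR-125b. miR-351-5p shares the first 8 bases of miR-125a-5p, and 10 of 24 positions in all. miR-10a-5p shares a run of 11 bases with miR-100-5p but has another seed. The miR-10 family summed to 5748 and 4531 CPM, with Mir10a at 4407 ± 631 CPM and Mir10b at 732 ± 230 CPM. That sum was below Mir100 alone in both libraries.

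**Figure D4:**
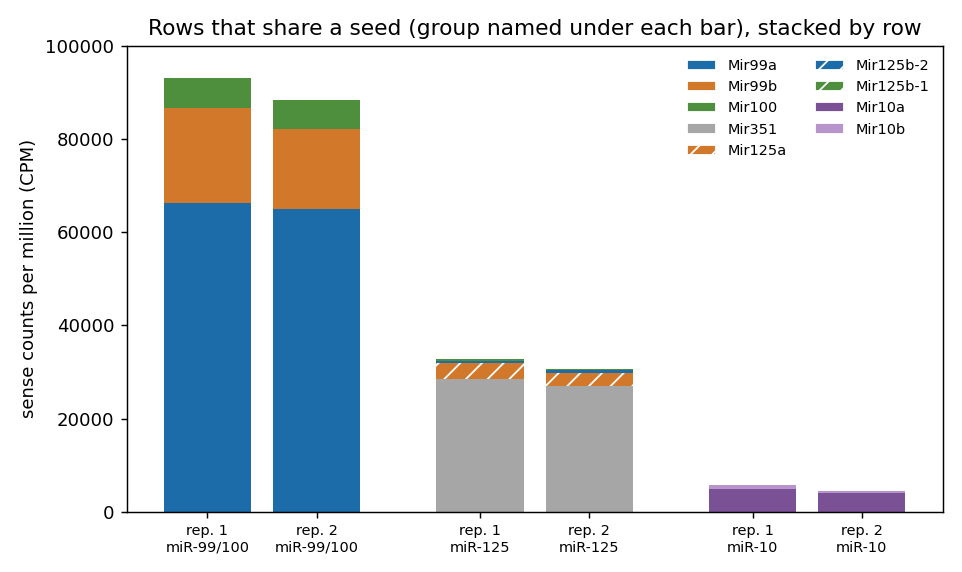
Sense CPM of rows that share a seed, stacked by row, with 1 bar per library for the miR-99/100, miR-125 and miR-10 seeds. Mir99a forms most of the first pair of bars and Mir351 87.3% of the second, where the miR-125b rows are thin bands at the top.

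Between the libraries, Mir125b-1 (log2 of replicate 1 over replicate 2 0.33), Mir125a (0.26) and Mir99b (0.23) had the larger ratios, and Mir100 (0.08), Mir125b-2 (0.05) and Mir99a (0.03) the smaller. None of the 6 was called at an adjusted p under 0.05 with a ratio of at least 1.5 in the exact binomial test with Benjamini-Hochberg adjustment over 288 genes, which called 17 genes or 5.90% of them. At any ratio, 5 of the 6 had an adjusted p under 0.05, against 177 or 61.5% of all genes tested. The exception was Mir125b-2 (exact binomial test, adjusted p = 0.248). The same 5 had an unadjusted p under 0.05. The p-values set one library's reads against the other's and speak of no condition.

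The median ratio over all 288 genes was itself 0.10 on the log2 scale, and TMM or DESeq2 scaling brought it to 0.00. Relative to that shift, Mir99b, Mir125a and Mir125b-1 remained higher in replicate 1 (0.14, 0.16 and 0.23 under TMM), and Mir99a, Mir100 and Mir125b-2 turned lower (-0.07, -0.02 and -0.05). The log2 ratio of the members of a cluster to each other had an SD between the libraries of 0.0137 on chromosome 16, 0.0171 on chromosome 17 and 0.180 on chromosome 9. On total counts Mirlet7e had a ratio of 0.13 between the libraries, below the 0.23 of Mir99b and the 0.26 of Mir125a. The median absolute log2 ratio was 0.15 over the members and 0.16 over all genes tested. Marker sums also differed between the libraries. Erythroid rows summed to 1261 CPM in replicate 1 and 959 in replicate 2, epithelial rows to 1863 and 1462, leukocyte rows to 587 and 473, and Mir122 of liver held 201 and 591 CPM. Their part in the ratios of the members was not tested.

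**Figure D5:**
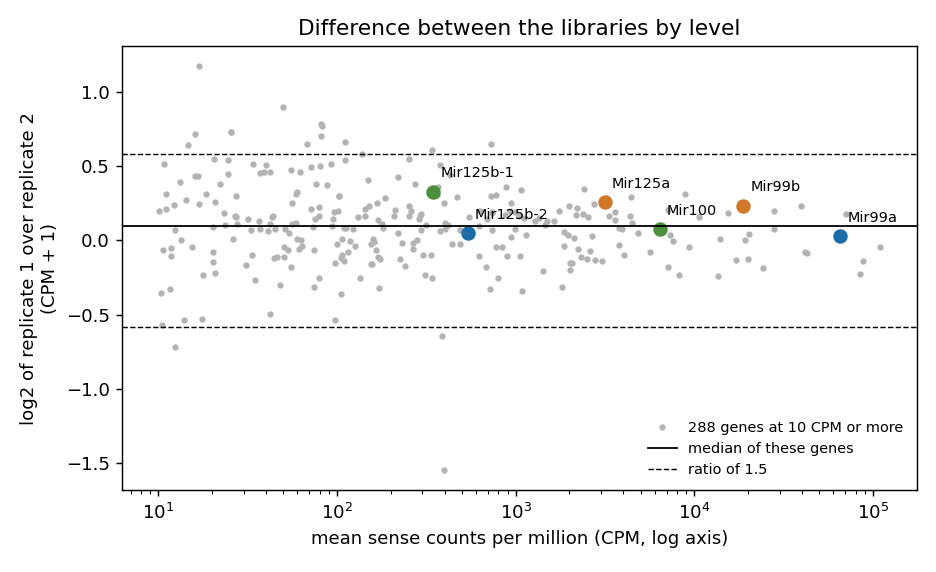
Log2 ratio of replicate 1 over replicate 2 with 1 CPM added, against mean CPM on a log axis, for 288 genes in grey and the 6 members coloured by chromosome. The solid line is the median ratio of 0.10, the dashed lines mark a ratio of 1.5, and all members lie between 0.03 and 0.33.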

How the data were processed

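The deposited tables hold raw read counts per miRNA gene on both strands, the sense strand and the opposite strand, made by the authors from reads aligned to mm10 under the M4 annotation of GENCODE, per the notes deposited with them. The aligner, counter and trimming were not given in the sources used here. Column meanings were taken from the values: the both-strand count equalled sense plus opposite at all 1973 genes in each library. The read classes stayed out of totals: 21.2% and 17.2% of reads were unmapped, 26.9% and 28.0% multi-mapping, and 3.60% and 2.92% outside any feature. Names and positions were looked up in GENCODE M21, also mm10 (1894 identifiers matched), and sequences from RefSeq.

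Means and SDs are over 2 libraries, and p-values measure reads of these libraries only. The libraries were compared gene by gene, from a mean of 10 CPM upward, by an exact binomial test on counts, two-sided and conditional on the gene's total, with Benjamini-Hochberg adjustment and a pseudocount of 1 CPM in the ratio. On simulated counts of replicate 1 against replicate 2 it recovered 199 of 200 genes changed 2-fold, over 287 genes, with 0 false calls. The simulated counts varied by counting error only, so the 0 false calls say nothing of variation between real libraries. Intervals are exact Clopper-Pearson, converted to ratios where needed. They and the floor of 3 counts cover counting error only, since PCR copies are not independent. Scaling alternatives used edgeR 4.0.16 and DESeq2 1.42.0 in R 4.3.3, and the rest Python 3.11.15 with scipy 1.17.1. Named genes were the members, their let-7 partners, rows sharing a seed, the let-7 and miR-10 families, marker rows, and the row just above and below each member. The members and lists were chosen with earlier results of these data known.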

Additional observations from a re-analysis of the deposited data

Results flagged for a closer look

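Counts opposite to the row of Gm25927 are in a column that the other levels do not use, and they exceeded the limit set by a count of 0, 0.539 CPM for replicate 1 and 0.497 CPM for replicate 2. They amounted to 5042 and 4598 CPM, a mean of 4820 ± 314 CPM (SD, n = 2), on the strand and at the place of Mirlet7e, the let-7 partner of Mir99b and Mir125a. The row itself held 0 sense counts in both libraries. As a row of its own Mirlet7e would rank 30, between Mir100 and Mir125a.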

How the results depend on the processing

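The alternatives moved 10 values of the shares, ratios and calls beyond their spread and turned the direction of none of these. The rest are no sign of stability where they could not move: without 1 of 2 libraries a mean always stays within 1 SD, and ratios among members cannot change with both strands, since the members held 0 opposite counts. The share of the 6 members (9.48%) became 9.00% with both strands counted, 10.7% without Mir335, the row with the most counts, and 4.50% of all reads. With the let-7 partner added, the log2 ratio of chromosome 16 over 17 went from 1.59 to 1.31 and chromosome 17 over 9 from 1.70 to 1.96. With the miR-99/100 row alone, chromosome 16 over 17 was 1.81, 16 over 9 was 3.35 (3.29 before) and 17 over 9 was 1.55. Without Mir351 the log2 seed ratio was 4.50. With no minimum ratio, 5 members were called in place of 0. Over all genes, 17 calls became 177 with no minimum ratio, 2 at a ratio of 2, 45 with no CPM minimum and 6 at 100 CPM. The sign of the ratio between libraries turned for Mir99a (-0.0688 with TMM, -0.0710 with DESeq2, -0.0699 on all reads), Mir100 (-0.0232, -0.0254, -0.0243) and Mir125b-2 (-0.0492, -0.0515, -0.0502), since each lowers all ratios alike. Leaving out 1 library gave shares from 9.22% to 9.75%, ratios from 1.49 to 1.70, 3.26 to 3.32 and 1.62 to 1.77 for 16 over 17, 16 over 9 and 17 over 9, and seed ratios from 1.504 to 1.53. The call test needs both libraries and could not be run without either. Mir99b over Mirlet7e has no value on sense counts alone; its log2 ratio was 2.01 in replicate 1 and 1.91 in replicate 2. The precision rests on 2 libraries. How reads of mature sequences with several loci were assigned to the miR-125b and let-7 rows was not tested.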

Other observations

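Among the 288 rows at 10 CPM or more, 266 had a mature sequence in RefSeq under their symbol, and 35 of these carry at least 1 mature sequence that is listed at another locus too. The median level was 71.8 CPM over those 35 and 253 CPM over the others. Mir125b-2 at 540 CPM and Mir125b-1 at 345 CPM lay above both medians, and Mirlet7c-1 at 103 CPM above the first only. Each median covers rows of many microRNAs, so it cannot show how reads of a shared sequence were assigned. The 3p sequences of Mir125b-1 and Mir125b-2 are each listed at 1 locus.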
